A study of Homo sapiens with 4 samples.

Results

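The RAB GTPase family was represented by 161 probe sets for 57 genes, out of 49395 probe sets and 18132 genes in the whole table. A probe set is a group of short array probes that report 1 transcript or a few of its variants. Members were set by name: every probe set annotated to exactly 1 gene whose symbol is RAB, then digits, then at most 1 letter. This rule was made with earlier results of these data known. All 57 gene identifiers carried the same symbol in RefSeq, and no other single gene of the table had a RAB symbol there. No filter on low values was applied, so all 161 probe sets and all 57 genes were tested. Another 12 RAB probe sets named several genes at once, were not counted as members, and are described at the end.

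RABs are small GTPases that mark the membranes of a cell. In the GTP-bound form a RAB sits on 1 kind of vesicle or organelle and recruits effectors, such as tethers, motors and adaptors, that move the membrane and dock it at its target. Exchange factors switch a RAB on, GTPase-activating proteins switch it off, and escort and GDI proteins carry its lipid-tailed form through the cytosol. Several RABs, RAB27A among them, are known for the release of exosomes, and others, such as RAB5 and RAB7, for the fate of what a cell takes up.

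The cells were LNCaP, an androgen-responsive line from a metastasis of prostate cancer, grown in RPMI-1640 with 10% fetal bovine serum. In 2 samples LNCaP had been given exosomes, small secreted vesicles, made by PC-3 cells, which come from an androgen-independent prostate cancer. In the other 2, labelled normal LNCaP with no agent, the cells had been given PBS, a buffer, according to the treatment note. The sources used here do not give the dose, the time of exposure, how the exosomes were prepared or whether the 2 samples of a group came from separate cultures, so every spread below may be technical. RNA brought in by the vesicles and RNA made by the cells cannot be told apart in such bulk samples, and neither can fewer cells of a type and less RNA per cell.

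The deposited values had been processed by the submitters, and sorted intensities of the 4 arrays lay within 0.0712 (log2) of each other. Near-equal medians, between 110.8 and 112.4, followed from that and say nothing about how alike the samples were. Pearson's r over genes, which are not independent replicates, lay between 0.998 and 0.999. Beta-actin probes gave 3' to 5' ratios, which rise as RNA degrades, of 6.82 and 5.39 in the treated cells against 5.74 and 7.17 in the controls. For GAPDH the ratios were 1.35 and 1.34 against 1.32 and 1.33, and their part in the results was not tested. The note on RNA extraction speaks of brain tissue, so markers were checked. All 7 measured markers of LNCaP and luminal prostate were at or above the median level of all genes, with KLK3 at 13847 to 14526 on the 4 arrays. Of 10 markers typical of PC-3 rather than LNCaP 1 was at or above that median, and their summed intensity was 1047 and 1087 after exosomes, 1136 and 1108 after PBS. Of 9 brain markers 3 were, and of 4 blood markers 2, with sums of 1896 and 1906 against 1783 and 1861 for brain, and 932 and 879.6 against 869.8 and 1069 for blood. None of these markers passed the limma test. At an unadjusted p under 0.05 TMPRSS2 and TRPM8 of the prostate list and MBP of the brain list were higher, and LGALS1 and NEFL were lower.

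As a family the RAB genes shifted little. Their median log2 fold change, exosomes minus PBS, was 0.003 (31 of 57 above 0), where the median of all genes was -0.01 and 44% of them were above 0. With 1 probe set per gene, the brightest, 1 RAB gene of 57 was higher and 0 lower at an adjusted p under 0.05 (limma, Benjamini-Hochberg over all genes). In that fit 0.888% of all genes passed, 127 higher (0.7%) and 34 lower (0.188%). Before adjustment 4 RAB genes had a p under 0.05 on the higher side and 2 on the lower, 10.5% of the family against a background of 10.9% (5.76% higher, 5.16% lower), so this count is no result about the family. When each probe set was tested by itself, 0 of 161 passed the limma threshold against 0.258% of all probe sets (0.238% higher, 0.02% lower). Of the 161, 96 were above 0, or 59.6%, against 45.8% of all probe sets. In that fit 18 RAB probe sets (15 higher, 3 lower) had an unadjusted p under 0.05, or 11.2% against 8.87% (4.73% higher, 4.14% lower).

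Both exosome arrays lay above both PBS arrays in 18 RAB genes (31.6%) and below them in 9 (15.8%). Of all genes 17.8% were so placed above and 21.9% below, 39.8% together. Among the probe sets the counts were 50 above (31.1%) and 26 below (16.1%), against 17.2% and 20.5% of all probe sets, 37.7% together. Genes and probe sets are not replicates, and no test was made of these shares. The RAB genes were also not matched to the background in level. Of the 57, 40 were at or above the median level of all genes. Their median SE was 0.061, against 0.078 for all genes, and the part of this in the shares was not tested. Intervals of 95% for the log2 fold change were taken from each gene's brightest probe set (limma, not adjusted for the number of genes). They lay inside a 1.5-fold change in either direction for 57 of the 57 RAB genes and inside 1.3-fold for 53. The 4 whose interval reached past 1.3-fold were RAB27A, RAB39B, RAB41 and RAB6D. Both fold limits were chosen after the values were seen. Some dimmer probe sets, fitted by themselves, had intervals that reached past 1.5-fold (log2 0.58). Among them were 11728850_at of RAB39B (0.36 to 0.81) and 11742071_x_at of RAB27A (0.31 to 0.77).

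Directions depend on the scale. Poly-A spike-ins are foreign RNAs mixed in before labelling, and several of their 24 probe sets read the same RNA. When each array was centred on these 24 probe sets, every log2 fold change fell by 0.14 and the median of all genes was -0.15. On that scale 60 genes were called higher and 326 lower, in place of 127 and 34, and 5 of 57 RAB genes (8.77%) lay above 0 against 7.68% of all genes. Those 5 were RAB27A, RAB39B, RAB29, RAB26 and RAB3C. The spike-in means (log2) were 6.94 and 7.02 on the exosome arrays and 6.90 and 6.77 on the PBS arrays. The 2 PBS arrays thus also differed from each other. Whether the same amount of spike-in went into each sample is not known. Values below are on the scale of the deposited intensities unless the spike-ins are named.

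**Figure D1:**
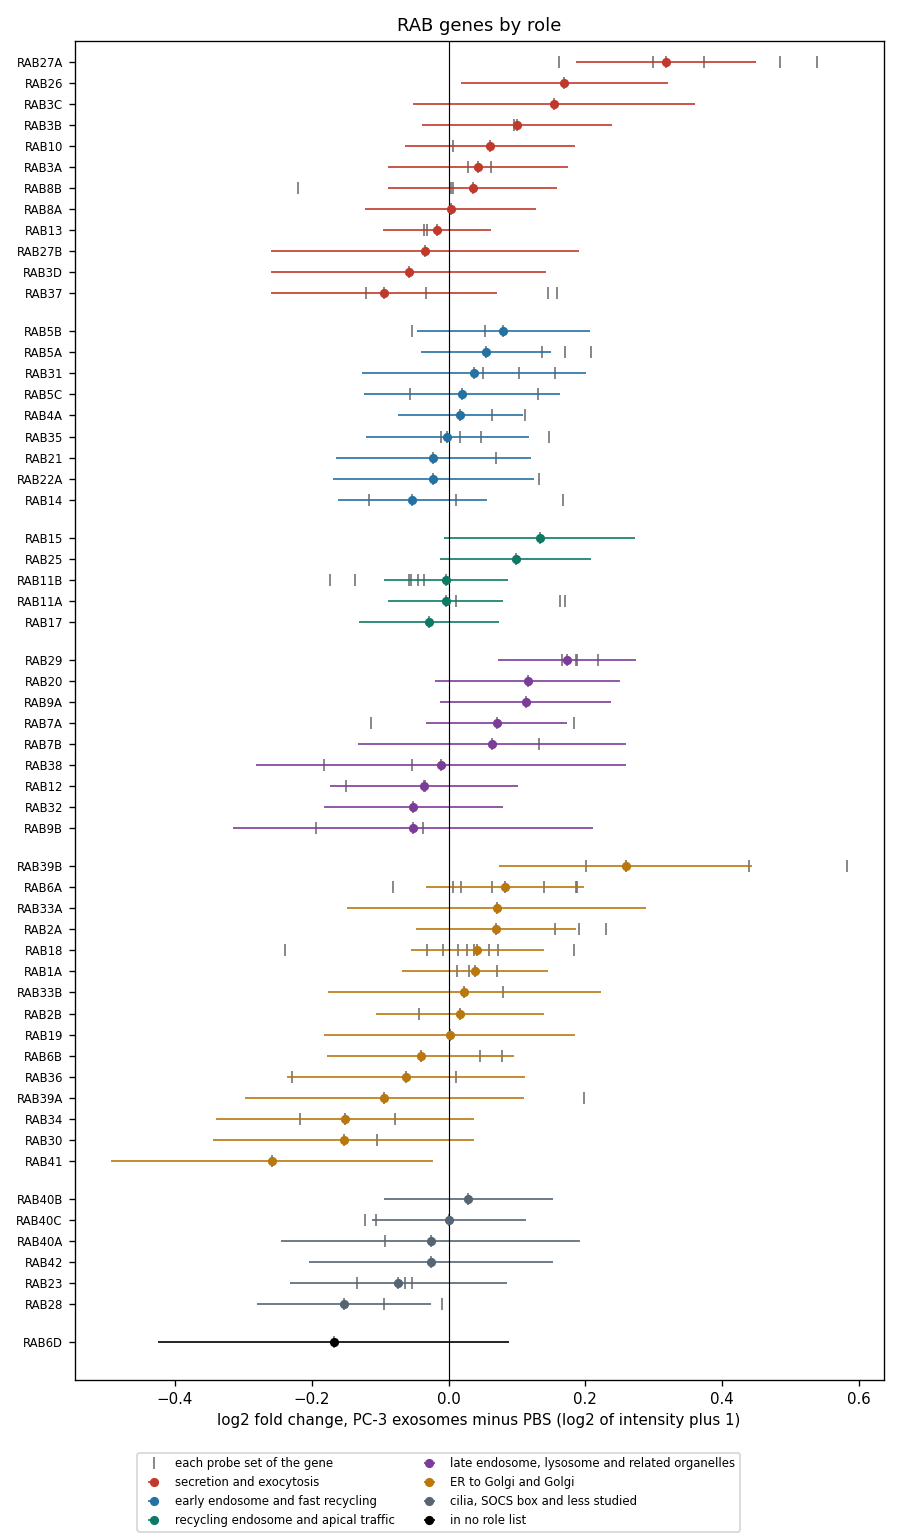
Log2 fold change (PC-3 exosomes minus PBS, on log2 of intensity plus 1) of the 57 RAB genes on the x axis, with 1 gene per line, grouped and coloured by role. The dot is the brightest probe set with its 95% interval from limma (2 arrays a group) and the grey ticks are all probe sets of the gene; RAB27A, at 0.32, and RAB39B, at 0.26, lie farthest to the right, and most intervals cross 0.

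RAB27A was the RAB gene that passed. It docks secretory granules and multivesicular endosomes at the plasma membrane and is known for exosome release. On its brightest probe set the exosome arrays read 760.5 and 736 and the PBS arrays 619 and 582, so both exosome arrays stood above both PBS arrays. The means were 748 ± 17.0 and 600.4 ± 26.1 (SD, n = 2 each). RAB27A rose 1.25-fold, a log2 fold change of 0.32 (SE 0.058, limma adjusted p = 0.0475 over all genes).

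All 6 probe sets of RAB27A were above 0, from 0.16 to 0.54 on the log2 scale, and each of the 6 had both exosome arrays above both PBS arrays. The largest difference was on 11742071_x_at, with 177 and 203 after exosomes against 123 and 138 after PBS (log2 0.54, SE 0.0985). On 11725425_s_at the values were 226 and 267 against 189 and 162, and on 11758934_x_at 237 and 263 against 200.4 and 185. These 3 were dimmer than the brightest probe set and read larger differences, at log2 0.37 to 0.54 against 0.32. The dimmest pair gave 68.9 and 70.2 against 52.5 and 60.5 on 11725424_a_at, and 60.2 and 57.2 against 52.0 and 52.7 on 11725426_a_at. Tested as single probe sets, 5 of the 6 had an unadjusted p under 0.05 and 0 passed the adjustment, the smallest limma adjusted p being 0.118. Probe sets annotated to 1 gene do not count as independent samples, and whether each of them reads only that gene's RNA was not tested. For scale, 9.71% of the 3822 genes with 4 or more probe sets had all of them above 0, as did 7 of the 16 such RAB genes.

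The call of RAB27A rests on a narrow margin. With an array left out its limma adjusted p was 0.354 without exosome replicate 1, 0.351 without exosome replicate 2, 0.105 without PBS replicate 1 and 0.221 without PBS replicate 2, at log2 fold changes of 0.27 to 0.36. Against the poly-A spike-ins the log2 fold change was 0.18 (adjusted p = 0.224), though 11742071_x_at passed there by itself at 0.40 (adjusted p = 0.0472), and 6 of 6 probe sets stayed above 0. With the replicate number as a block the adjusted p was 0.208, and without a variance trend 0.225.

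RefSeq lists 5 start sites for RAB27A, and the arrays do not tell which of them LNCaP used. The 250 bases before each start were searched on both strands for 7 motifs of regulators named in stress, interferon and lysosome responses. The windows of the 2 starts with a match are shown, on the minus strand of GRCh38.p14, 5′ to 3′ and ending at the base before the start, with the match in capitals. The first, chr15:55319124-55319373, holds an interferon-stimulated response element on the opposite strand, 240 bases before the start. The other, chr15:55270400-55270649, holds TGATTCA, 197 bases before the start. It matches TGANTCA, the pattern searched for as an AP-1 site, in which N is any base.
RAB27A, upstream start: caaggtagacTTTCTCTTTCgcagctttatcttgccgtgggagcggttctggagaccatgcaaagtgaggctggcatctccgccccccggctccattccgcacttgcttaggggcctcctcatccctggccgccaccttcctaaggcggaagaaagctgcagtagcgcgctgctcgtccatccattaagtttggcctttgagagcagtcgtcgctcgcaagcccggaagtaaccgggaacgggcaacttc
RAB27A, inner start: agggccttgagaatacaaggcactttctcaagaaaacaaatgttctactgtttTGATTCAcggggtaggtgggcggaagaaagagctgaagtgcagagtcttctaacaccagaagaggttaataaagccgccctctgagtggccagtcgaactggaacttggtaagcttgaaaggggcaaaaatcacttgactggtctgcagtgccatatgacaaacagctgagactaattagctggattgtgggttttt

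These matches are descriptions of letters, not of sites in use. Of 35116 windows of the same length before RefSeq starts, 3.02% held the interferon-stimulated response element and 6.57% held TGANTCA. Among the 71 windows of 50 RAB genes, 1 held the former and 6 the latter, in RAB27A, RAB27B, RAB13, RAB34, RAB3B and RAB5B. The 50 genes were not the same set as the 57 tested. They included RAB1B and RAB24, which had no probe set of their own, and RAB39B had no window. The gamma-interferon activated site TTCNNNGAA was found before RAB1B and RAB30 (6.57% of all windows), the cyclic AMP response element TGACGTCA before RAB25 (1.65%), and the C/EBP and ATF4 composite TGATGNAA before RAB28 (3.14%). The antioxidant response element was in 6 RAB windows (10.2% of all windows) and the E-box CACGTG in 5 (6.34%). The single window of RAB29 held none of the 7 motifs.

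**Figure D2:**
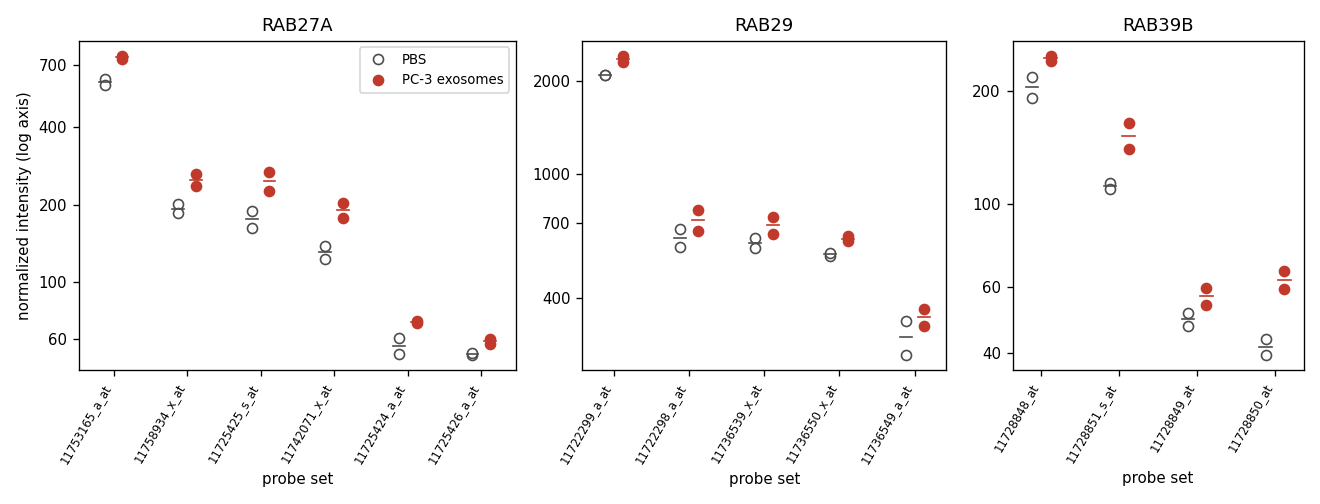
Normalized intensity (log axis) on each array for every probe set of RAB27A, RAB29 and RAB39B, with open circles for the 2 PBS arrays, filled circles for the 2 PC-3 exosome arrays and a bar at each group's mean. In 13 of these 15 probe sets both exosome arrays lie above both PBS arrays; the other two belong to RAB29.

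The other 11 RABs of secretion did not pass the test. Of these 7 were above 0 and 4 below, and their median log2 fold change was 0.04. RAB27B, the close relative of RAB27A in granule docking, read 67.1 and 57.9 with exosomes and 66.8 and 61.1 with PBS. Its groups overlapped, with a log2 fold change of -0.03 (95% interval -0.26 to 0.19), and the difference between RAB27A and RAB27B was not tested. RAB26, of secretory granules, read 519 and 492 against 469 and 430.2, a log2 fold change of 0.17 (SE 0.067, limma adjusted p = 0.398), with no overlap.

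The RAB3 proteins prime vesicles for regulated release. On the brightest probe sets RAB3A, RAB3B and RAB3C were above 0 and RAB3D was below. RAB3C gave 32.9 and 28.7 against 28.0 and 27.0, a dim signal with a log2 fold change of 0.15 (limma adjusted p = 0.594), which was 0.06 without exosome replicate 1 and 0.25 without exosome replicate 2. RAB3B gave 393 and 389 against 369 and 360.4, without overlap but with a log2 fold change of 0.10 (limma adjusted p = 0.608). RAB3D read 125 and 144 against 139 and 141, with overlap (log2 -0.06), and RAB3A had a log2 fold change of 0.04. RAB8A and RAB8B, which carry cargo to the plasma membrane and the cilium, stood at 0.003 and 0.04. RAB10 was at 0.06, RAB13, of tight junction traffic, at -0.02, and RAB37 at -0.09.

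RAB29 led the RABs of the late endosome, lysosome and related organelles. It recruits the kinase LRRK2 to Golgi and lysosomal membranes. Its brightest probe set read 2303 and 2414 with exosomes and 2086 and 2096 with PBS, 2359 ± 78.7 against 2091 ± 6.73 (SD, n = 2 each). The groups did not overlap, but the log2 fold change of 0.17 (SE 0.045) did not pass after adjustment (limma adjusted p = 0.161). All 5 probe sets lay between 0.17 and 0.22 with the 4 arrays together, and 3 of the 5 had an unadjusted p under 0.05. They ran from 0.04 to 0.18 without PBS replicate 2 and from 0.15 to 0.40 without PBS replicate 1. On 11736549_a_at, which read 324 and 369 against 336 and 263, and on 11722298_a_at, the groups overlapped.

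RAB9A, which returns receptors from late endosomes to the Golgi, read 727 and 708 against 650.1 and 676 (log2 0.11, limma adjusted p = 0.506). RAB20, which acts in phagosome maturation, read 558 and 578 against 510.2 and 538 (log2 0.12, limma adjusted p = 0.534). Both genes had no overlap between the groups. RAB7A, the main RAB of late endosomes and lysosomes, read 1785 and 1720 against 1674 and 1663, a log2 fold change of 0.07 (95% interval -0.03 to 0.17). Its 3 probe sets did not agree in sign, running from -0.11 to 0.18. The remaining 5 genes of this group were RAB7B at 0.06, RAB38 at -0.01, RAB12 at -0.04, and RAB32 and RAB9B at -0.05 each. Of the 9 genes, 0 passed the adjusted limma threshold, and 1, RAB29, had an unadjusted p under 0.05, or 11.1% against 10.9% of all genes.

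Among the RABs of the early endosome, which sort what a cell takes up, 0 of 9 genes and 0 of 30 probe sets had an unadjusted p under 0.05 in the limma fits, and 0 passed the adjustment. Their median log2 fold change was 0.02, with all 9 brighter than the median of all genes. Of the 30 probe sets 22 were above 0, or 73.3% against 45.8% of all probe sets. RAB5A, which drives fusion of early endosomes, read 2241 and 2229 against 2139 and 2166, without overlap, at a log2 fold change of 0.05 (95% interval -0.04 to 0.15). Its dimmer probe sets read larger differences, up to 0.21. RAB5B read 667 and 690.0 against 652 and 631 (log2 0.08, adjusted p = 0.663), and RAB14, of the route between endosomes and Golgi, 1493 and 1444 against 1551 and 1495, below PBS without overlap (log2 -0.05, adjusted p = 0.765). RAB5C was at 0.02, RAB4A, of rapid recycling, at 0.02, RAB31 at 0.04, RAB35 at -0.0015, and RAB21 and RAB22A at -0.02 each.

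Recycling endosome RABs included some of the tightest values. RAB11A, which returns receptors to the surface, read 5411 and 5259 with exosomes and 5301 and 5400.1 with PBS, with a log2 fold change of -0.004 (95% interval -0.09 to 0.08). Its 4 probe sets ran from -0.004 to 0.17. RAB11B was also at -0.004, and its 7 probe sets, all below 0, reached -0.17. RAB25, the epithelial member of this branch, read 1726 and 1663 against 1622 and 1544 and had no overlap (log2 0.10, SE 0.049, limma adjusted p = 0.515). RAB15 read 497 and 521 against 475 and 453 (log2 0.13, SE 0.062, limma adjusted p = 0.479). RAB17, of epithelial transcytosis, read 1432 and 1440.1 against 1455 and 1474, lower with exosomes by 0.03 on the log2 scale and without overlap.

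Among the RABs of the Golgi and of the path from the endoplasmic reticulum, RAB39B had the largest difference. It is a RAB expressed in neurons and tied to inherited intellectual disability. The brightest probe set read 249 and 241 with exosomes and 192 and 218 with PBS, 245 ± 6.03 against 205 ± 18.3 (SD, n = 2 each), a 1.20-fold difference (log2 0.26, SE 0.082, limma adjusted p = 0.263). All 4 probe sets of RAB39B were above 0 and without overlap, at 0.20 to 0.58. On 11728850_at the values were 59.4 and 66.1 against 43.5 and 39.5, the smallest p of any RAB probe set (log2 0.58, SE 0.098, limma adjusted p = 0.0904 over all probe sets). On 11728851_s_at they were 140 and 164 against 113 and 109. When each gene was taken as the mean of its probe sets, RAB39B passed with a log2 fold change of 0.37 (limma adjusted p = 0.0347). Its brightest probe set stood at 0.12 against the poly-A spike-ins, at 0.17 without PBS replicate 1 and at 0.35 without PBS replicate 2.

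RAB41 and RAB34 lay on the other side of 0. RAB41, dim at 22.2 and 20.1 against 28.0 and 23.2, had a log2 fold change of -0.26 (SE 0.10, limma adjusted p = 0.404). Leaving out PBS replicate 1 gave -0.13, and leaving out PBS replicate 2 gave -0.39. RAB34, which acts at the Golgi and in cilium formation, read 100.3 and 101 against 107 and 117 (log2 -0.15, limma adjusted p = 0.564), and its 3 probe sets were all below 0. RAB30 was also at -0.15. RAB1A, which carries cargo from the endoplasmic reticulum to the Golgi, read 3172 and 3326 against 3261 and 3066. Its groups overlapped, and the log2 fold change was 0.04 (95% interval -0.07 to 0.15), with 4 of 4 probe sets above 0. RAB2A, of the same route, was at 0.07, with 4 of 4 probe sets above 0 and up to 0.23, and RAB6A, of retrograde Golgi traffic, at 0.08, with 7 of 8 above 0. RAB18, of lipid droplets, was at 0.04 over a range of -0.24 to 0.18 in 10 probe sets. RAB33A was at 0.07, RAB33B and RAB2B at 0.02 each, RAB19 at 0.001, RAB6B at -0.04, RAB36 at -0.06 and RAB39A at -0.09. In all, 9 of 15 genes of this group were above 0, the median was 0.02, and 0 passed the adjusted limma threshold. Before adjustment RAB39B, higher, and RAB41, lower, had a p under 0.05.

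The last group joins RABs of cilia, the RAB40 proteins that work with ubiquitin ligases, and less studied members. RAB28, of photoreceptor and cilium traffic, read 637 and 616 with exosomes and 682 and 711 with PBS, lower without overlap. Its log2 fold change was -0.15 (SE 0.056, limma adjusted p = 0.344), and its 3 probe sets were at or below -0.009. Against the poly-A spike-ins it was called lower, at -0.29 (limma adjusted p = 0.0450). RAB23, a brake on Hedgehog signalling, read 233 and 237 against 254 and 239.9 (log2 -0.07), with 4 of 4 probe sets below 0. RAB40B read 851 and 906 against 859 and 862 (log2 0.03), with overlap. RAB40A and RAB42 were at -0.03 each and RAB40C at 0.0007. Of the 14 probe sets of this group 2 were above 0, or 14.3% against 45.8% of all probe sets. RAB6D, a close relative of RAB6A outside the role lists, was at -0.17 with overlap.

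Within the family, 40 genes had several probe sets. All of them lay above 0 in 13 genes (32.5%) and below 0 in 10 (25%), and they lay on both sides in 17. Among all 11734 genes with several probe sets these shares were 17.4% above and 24% below. In 3 genes, RAB27A, RAB29 and RAB39B, at least 2 probe sets had an unadjusted p under 0.05 (limma), 7.5% of the 40 against 5.68% of all such genes. These 3 gave 11 of the 15 RAB probe sets that were higher at that level, and the other 4 were 1 each of RAB2A, RAB7A, RAB26 and RAB39A. The 3 lower ones belonged to RAB18, RAB28 and RAB41. RAB39A shows how far probe sets can differ: 18.6 and 20.0 against 16.6 and 16.8 on 11737972_at, and 31.9 and 35.8 against 35.3 and 37.1 on the brighter one.

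**Figure D3:**
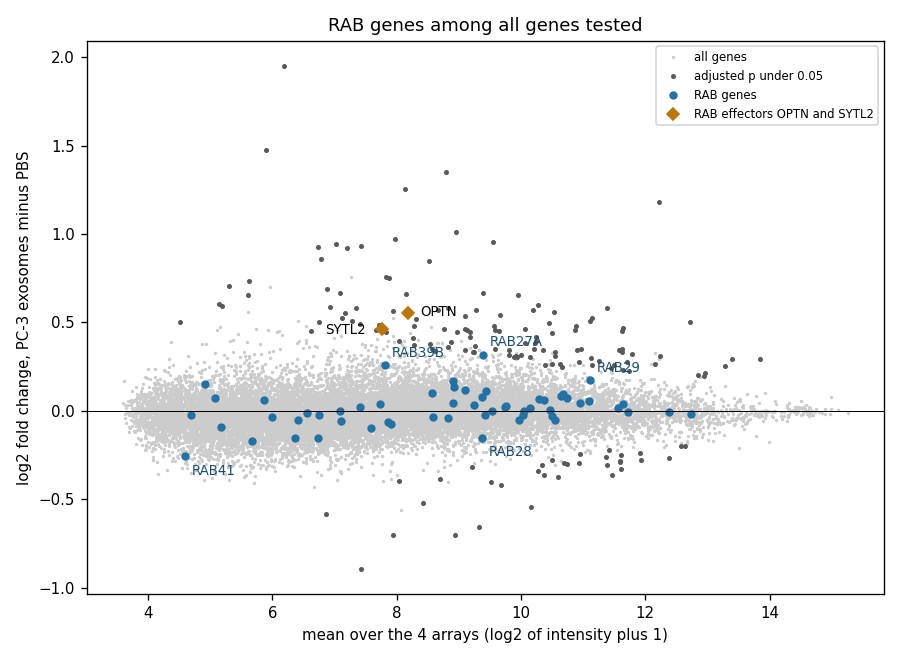
Log2 fold change (PC-3 exosomes minus PBS) of each gene's brightest probe set against its mean over the 4 arrays, both from log2 of intensity plus 1, for all 18132 genes in grey, those with a limma adjusted p under 0.05 in dark grey and the RAB genes in blue. RAB27A, at 0.32, is the RAB gene past the threshold; the diamonds are SYTL2, which binds RAB27A, at 0.46 and OPTN, which binds RAB8, at 0.56.

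The proteins that load, switch and read RABs were taken from a list of 138 genes, of which 130 were measured. Of these 2 rose and 0 fell at a limma adjusted p under 0.05 (background 0.888% of all genes). Against the poly-A spike-ins the limma calls were 1 higher, OPTN, and 2 lower, the motor adaptor BICD2 at -0.31 (adjusted p = 0.0206) and the RAB5 exchange factor RIN1 at -0.33 (adjusted p = 0.0382). Without adjustment 14 had a p under 0.05 in the higher direction (10.8%, against 5.76% of all genes) and 5 in the lower (3.85% against 5.16%). The median log2 fold change was 0.02, 74 of 130 were above 0, and 93 were at or above the median level of all genes. Both genes that rose were effectors, of which 53 were measured. OPTN, optineurin, which binds RAB8 and serves as an autophagy receptor, read 358 and 346 with exosomes and 230.1 and 248 with PBS. It rose 1.47-fold (log2 0.56, SE 0.071, limma adjusted p = 0.0097), with 3 of 3 probe sets above 0, and stayed past the threshold against the poly-A spike-ins at 0.42. SYTL2, a synaptotagmin-like protein that links RAB27A vesicles to the plasma membrane, read 242 and 266 against 191 and 177. It rose 1.38-fold (log2 0.46, SE 0.080, limma adjusted p = 0.0389), with 2 of 2 probe sets above 0.

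Neither OPTN nor SYTL2 passed once an array was removed, whichever it was. The limma adjusted p then ran from 0.0559 to 0.110 for OPTN, at log2 0.50 to 0.61, and from 0.116 to 0.395 for SYTL2, at log2 0.39 to 0.53. SYTL2 had a limma adjusted p of 0.121 against the poly-A spike-ins, at 0.32, and of 0.0506 as the mean of its probe sets. Both were lost with the replicate block (adjusted p = 0.175 and 0.260) and without a variance trend (0.0673 and 0.146).

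Other known partners of RAB27A, brought together after their values were seen, did not pass. MLPH, melanophilin, which ties RAB27A to myosin Va, read 2479 and 2370 against 2299 and 2091 (log2 0.14, SE 0.055, limma adjusted p = 0.361), and the motor MYO5A had a log2 fold change of 0.17 (limma adjusted p = 0.429). SYTL1 was at 0.02, SYTL3 at -0.003, SYTL4 at -0.05, MYRIP at -0.005 and UNC13D at 0.003, each with overlapping groups. SYTL5, dim at 19.9 and 18.9 against 22.0 and 25.1, had a log2 fold change of -0.27 (limma adjusted p = 0.297). The exchange factor MADD, which activates RAB3 and RAB27, was at 0.04.

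Among 6 measured genes of lipid tailing and shuttling, 0 passed, and RABAC1 alone had an unadjusted limma p under 0.05 (log2 0.13). Of 39 genes listed as exchange factors, among them the kinases LRRK1 and LRRK2, 0 passed. At an unadjusted limma p under 0.05, 1 was higher (RAB3IL1, at 0.23) and 3 were lower (DENND5B at -0.23, TRAPPC10 at -0.20 and RIN1 at -0.19). Of 32 GTPase-activating proteins 0 passed in the limma fit, and TBC1D9, at 0.21, was the 1 with an unadjusted p under 0.05. Effectors had 11 higher and 2 lower at that level, 24.5% of 53 against 10.9% of all genes, a share given as a description. The list was drawn up with earlier results of these data known, and 41 of the 53 effectors were at or above the median level of all genes. After OPTN and SYTL2 the effectors with the highest log2 fold changes were MICAL1, which trims actin, at 0.26 and the Golgi stacking protein GORASP2 at 0.21, both short of the adjusted threshold (0.238 and 0.154).

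**Figure D4:**
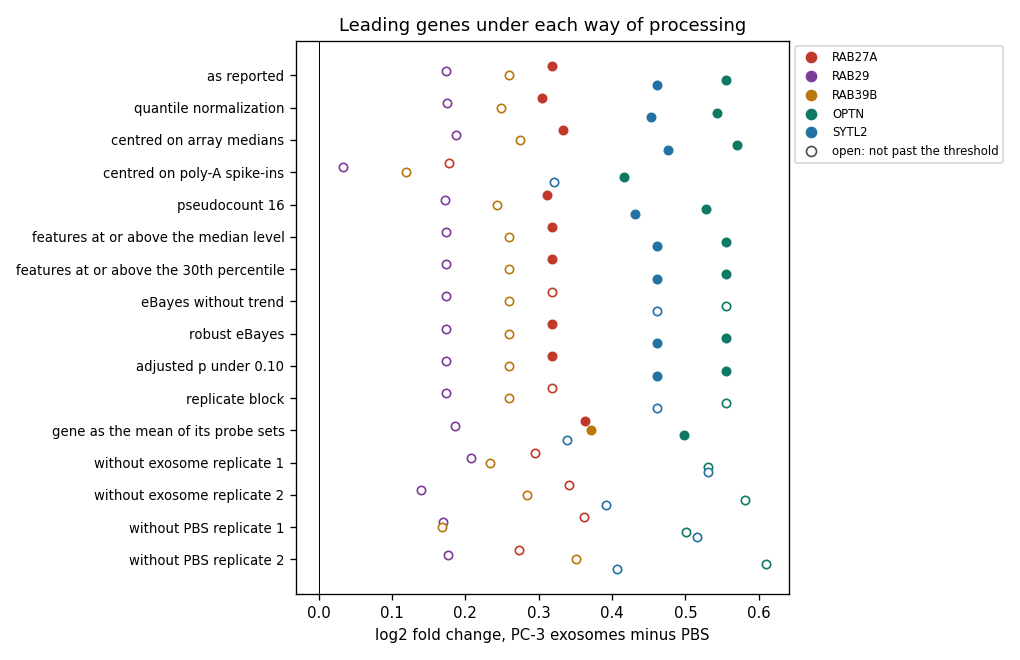
Log2 fold change (PC-3 exosomes minus PBS, x axis) of RAB27A, RAB29, RAB39B, OPTN and SYTL2 under each way of processing, with filled circles where the limma adjusted p passed the threshold. All values lie above 0; RAB27A is open whichever of the 4 arrays is removed, and RAB39B is filled only where the gene is the mean of its probe sets.

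The 12 RAB probe sets that named several genes were fitted with all 49293 non-control probe sets, and 0 of them passed the limma threshold (smallest adjusted p 0.298). Both exosome arrays were above both PBS arrays in 4 and below in 1, where 17.2% and 20.5% of all single-gene probe sets were so placed. The probe set 11757590_s_at, shared by RAB43 and the readthrough transcript ISY1-RAB43, read 919.9 and 915 against 788 and 803 (log2 0.21, SE 0.052), while the other probe set of that pair was at -0.11. The 2 probe sets of RAB24, of autophagy, which also name MXD3, gave log2 fold changes of 0.21 and 0.15. The probe sets shared by RAB1A and RAB1B gave -0.02, -0.02 and 0.18.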

How the data were processed

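Intensities were read from 4 arrays, 2 per group. The deposited values are linear intensities, already summarised by the authors to a single figure for each probe set. MAS5 and RMA are named in the submitters' processing notes, with no role or version, and the genome build of the probes is not given in the sources used here. Sorted intensities of the arrays lay within 0.0712 (log2) of each other, so nothing further was normalized, and values were taken to log2(value + 1). The number of arrays limits the precision.

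Of 49395 probe sets, 102 were controls, 2473 named no gene and 1832 several. The other 44988, and the brightest probe set of each of 18132 genes, were fitted in limma 3.58.1 (R 4.3.3; lmFit, eBayes with trend), exosomes minus PBS, two-sided, with Benjamini-Hochberg adjustment over all features and 2 residual degrees of freedom. An exact permutation of 2 against 2 cannot give a p below 0.333. On simulated data for 18132 genes the fit called 12% of changes of 0.25 on the log2 scale, 70% of 0.5 and 100% of 1 and 2. The simulated noise was normal and independent, with variances drawn from the distribution that the same fit had estimated. These shares hold for that setting only and may be too high for the real arrays. Named were RAB genes past the threshold in either fit, the 3 smallest p per role group, 9 fixed genes, and regulators or effectors past the threshold; others were described after their values were seen. The members and lists were chosen with earlier results of these data known. Promoter windows are RefSeq's, on GRCh38.p14. Alternatives, 15 in all, are in the closing section. Figures used matplotlib 3.10.9.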

Additional observations from a re-analysis of the deposited data

How the results depend on the processing

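Of 382 values of the 26 named genes under 15 alternatives, 338 kept their direction and side of the threshold. This count is not a measure of robustness. Alternatives that change only the variance model, the threshold, the level filter or the block leave each fold change as it was, so no direction could turn there. Most named genes were not called as reported, so most could keep their side easily. The 1 called RAB gene and the 2 called regulators and effectors became 0 and 0 without a variance trend, with the replicate block and with any array left out (0 to 0 each). By mean of probe sets they were 2 (RAB27A, RAB39B) and 1 (OPTN). Regulators and effectors against the spike-ins were 3 (OPTN higher, BICD2 and RIN1 lower). The called RAB probe sets, 0 as reported, were 2 against the poly-A spike-ins (RAB27A higher, RAB28 lower), 1 among features at or above the median level, 1 at an adjusted p under 0.10, and 0 to 0 with an array left out. All genes called, 161 as reported, were 251 after quantile normalization, 386 against the spike-ins, 297 at or above the median level, 21 without a trend, 272 at an adjusted p under 0.10, 2 with the replicate block and 33 to 47 with an array left out. All probe sets called, 116 as reported, were in that order 201, 871, 219, 10, 212, 0 and 0 to 4. Nothing in the labels says what the replicate numbers share, and deviations of same-numbered arrays had a correlation of -0.04 over genes, so the replicate block is given as a value only.

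The median of RAB genes, 0.0033, was 0.0179 after centring on array medians, -0.136 against the spike-ins, 0.0321 at or above the median level, 0.0165 at or above the 30th percentile, 0.0279 by mean of probe sets and 0.0051 to 0.0218 with an array left out. That of RAB probe sets, 0.0178, was -0.12 against the spike-ins, 0.0381 at or above the median level and 0.0089 to 0.0410 with an array left out. That of regulators and effectors, 0.0161, was -0.12 against the spike-ins and -0.00098 to 0.0378 with an array left out.

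Signs turned for uncalled genes. Against the spike-ins they were RAB15 (-0.0066), RAB1A (-0.10), RAB20 (-0.0239), RAB25 (-0.0416), RAB3B (-0.0394), RAB40B (-0.11), RAB5A (-0.0855), RAB5B (-0.0593), RAB7A (-0.0690) and RAB9A (-0.0268). RAB11A turned to 0.0036 after quantile normalization, 0.0102 after median centring and 0.0850 by mean of probe sets, and RAB14 to 0.0021 by mean of probe sets. With an array left out RAB11A ran from -0.0249 to 0.0161, RAB1A from -0.0058 to 0.0832, RAB27B from -0.138 to 0.0698, RAB3D from -0.157 to 0.0410 and RAB40B from -0.0155 to 0.0734. The causes were not tested.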
